A study of Homo sapiens with 6 samples.

Results

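TMEM97, IFT20, TNFAIP1, TMEM199, SARM1, VTN, SLC46A1, UNC119, PIGS and SPAG5 lie beside POLDIP2 on the long arm of chromosome 17, and their mRNA levels were compared between ARPE-19 cells with and without a CRISPR/Cas9 edit in POLDIP2. The genes were chosen by name for their position, with earlier results of these data known, and are 10 of the 37902 genes in the table of normalised counts. None of the 10 passed the test between the lines after adjustment over all tested genes. TMEM97 was the member whose knockout libraries all lay below the WT libraries, at a mean of 1562 ± 310 against 2158 ± 54.1 normalised counts (SD, n = 3 libraries each). VTN was the member with the largest fold difference, at 99.8 ± 35.2 normalised counts in the knockout line and 55.6 ± 25.2 in WT, with libraries of the lines that overlapped.

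Genes that sit close together can share regulatory DNA, and where a pair is transcribed away from a common short stretch the same bases can act as the promoter of both. An edit at the start of such a gene is therefore placed near the control region of its partner. Genetic studies of age-related macular degeneration name this locus after TMEM97 and VTN as well as POLDIP2, because variants along it travel together and do not by themselves point to a gene. VTN codes for vitronectin, a secreted protein of blood plasma and extracellular matrix that is also found in drusen, the deposits that form beneath the retinal pigment epithelium (RPE).

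ARPE-19 is an established human RPE cell line. The WT group held 3 libraries of wild type ARPE-19 cells, and the POLDIP2 KO group held 3 libraries of a stable ARPE-19 line that had received a lentivirus carrying SpCas9 with an sgRNA against the POLDIP2 coding sequence and had been selected with an antibiotic. Both groups were sampled at day 3 under regular maintenance, with no other agent named. The knockout line was expanded from transduced cells and is not described as a clone, and the WT cells are not described as carrying a vector, so the edit, the vector, the selection and the history of the line cannot be told apart. The labels call the replicates biological without saying whether they were separate cultures, so p-values measure the spread between these libraries. Each library came from poly(A) mRNA with a stranded kit and held between 31532797 and 45795509 reads assigned to genes, so 3 reads corresponded to between 2.44 and 3.69 normalised counts.

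The labelled cell type was checked against 16 RPE markers, of which 12 passed the filter on low values. Of these 0 passed the test between the lines after adjustment in limma, edgeR or DESeq2, and 1, the retinoid enzyme gene LRAT, had an unadjusted p under 0.05 in limma. LRAT had 106, 75.3 and 29.2 normalised counts in WT and 22.1, 24.4 and 28.8 in POLDIP2 KO (limma adjusted p = 0.731). The epithelial keratin genes KRT8 and KRT18 had means of 39540 and 32130 normalised counts in WT, and the pigment cell transcription factors MITF and OTX2 had means of 3831 and 762. RPE65, the isomerase of the visual cycle, and TTR, a retinol carrier gene, were at 0 in all 6 libraries. The pigment enzyme genes TYR and DCT reached at most 4.0 normalised counts in any library. TYRP1, of the same list, had 1 read in WT replicate 3 and at most 27.1 normalised counts in any library. The remaining RPE genes of the list were detected in every library. BEST1, a chloride channel gene, had between 61.4 and 669 normalised counts, and RDH5, a retinol dehydrogenase gene, had between 188 and 322. PMEL, which encodes the fibril protein of pigment granules, lay between 36.7 and 103, and RLBP1 between 19.7 and 68.2. SERPINF1, which encodes a secreted factor of the RPE, had 103, 168 and 108 normalised counts in WT and 101, 74.1 and 49.6 in POLDIP2 KO. Its lines did not overlap, as for LRAT, and its log2 difference of -0.77 did not pass the test (limma adjusted p = 0.822). Of all tested genes 5.44% were lower without overlap, and 6.48% had an unadjusted p under 0.05 in limma. Of the RPE markers, RPE65, TTR, TYR and DCT were thus at or near 0 in both lines, and the other 12 were above the filter on low values.

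The sgRNA is shown because its cut fixes the distances used below. It matched the reference once on chromosome 17, at chr17:28357305-28357324 of GRCh38 on the minus strand, which is the coding strand of POLDIP2. The site is in exon 1 of the MANE transcript, inside the coding sequence. The protospacer is written 5′ to 3′ in lower case, with the PAM that SpCas9 requires in capitals.
POLDIP2 sgRNA: cgtcgaccacgacgacgcggAGG
The predicted cut lies 220 bases from the annotated start of POLDIP2 and 141 bases into its coding sequence. TMEM199 starts 335 bases from the cut and is transcribed in the opposite direction, with 114 bases between the starts of the pair.

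Those 114 bases, chr17:28357528-28357641 of GRCh38 on the plus strand, are shown because they are the stretch from which POLDIP2 and TMEM199 diverge. Capitals mark ACTTCCGG, the letters bound by ETS family transcription factors, searched on both strands after the stretch had been read.
POLDIP2 to TMEM199: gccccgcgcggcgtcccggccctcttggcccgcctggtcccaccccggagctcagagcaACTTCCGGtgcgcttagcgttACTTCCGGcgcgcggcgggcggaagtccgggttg
The motif occurred 2 times here. Of the 114 bases before each of 35116 RefSeq gene starts (GRCh38.p14), 2.65% held it at least 1 time and 0.157% at least 2 times. The GC content of the stretch was 74.6%, against a median of 60.5% in the same windows of all promoters. A match is a description of letters and not of binding.

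POLDIP2, which codes for a protein that partners DNA polymerases and works in mitochondria, was examined first because it is the edited gene. The WT libraries held 3919, 4827 and 4798 normalised counts of POLDIP2 and the POLDIP2 KO libraries 1063, 1248 and 1143. The lines did not overlap, and the ratio of the means was 0.255. On the log2 scale the difference was -1.97 (95% confidence interval -2.26 to -1.67), with an adjusted p of 0.00961 in limma after Benjamini-Hochberg adjustment and of 0.0274 when the model also held a term for the replicate number (the replicate block). In bulk RNA from a selected population, fewer cells with the transcript and less transcript per cell cannot be told apart. Without a single library in turn the adjusted p lay between 0.0202 and 0.0886, and it was over 0.05 without WT replicate 2 or 3 and without POLDIP2 KO replicate 2 or 3.

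All 10 neighbours passed the filter on low values, a mean of at least 10 normalised counts, and entered the test with 14684 genes in all. At an adjusted p under 0.05 in limma, 0 of the 10 passed, where 0.17% of all tested genes did. With a fold change over 1.5 required as well, 0 members were called higher against 0.0817% of all tested genes, and 0 lower against 0.0885%. The count was also 0 with edgeR and with DESeq2 on reads recovered from the normalised counts, where DESeq2 called 1.89% of all tested genes. At an unadjusted p under 0.05, 1 of the 10 was called, TMEM97, against a background of 6.48%. With the replicate block, 2 of the 10 had an unadjusted p under 0.05, TMEM97 and VTN, against 11.1% of all tested genes, and 0 had an adjusted one against 0.204%. The shares of the members thus lay near those of all genes.

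The sizes of the differences were close to those of all tested genes. The knockout mean was higher for 4 members and lower for 6, and the median log2 fold change was -0.05 against -0.000288 over all tested genes. The median absolute log2 fold change was 0.13 in the members and 0.13 in all tested genes, and the median spread within a line was 0.23 and 0.24 on the same scale. For 6 members, IFT20, TNFAIP1, TMEM199, SARM1, SLC46A1 and UNC119, the whole 95% confidence interval lay within a 1.5-fold change either way. The intervals of 0 of the 10 reached the change of POLDIP2.

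**Figure D1:**
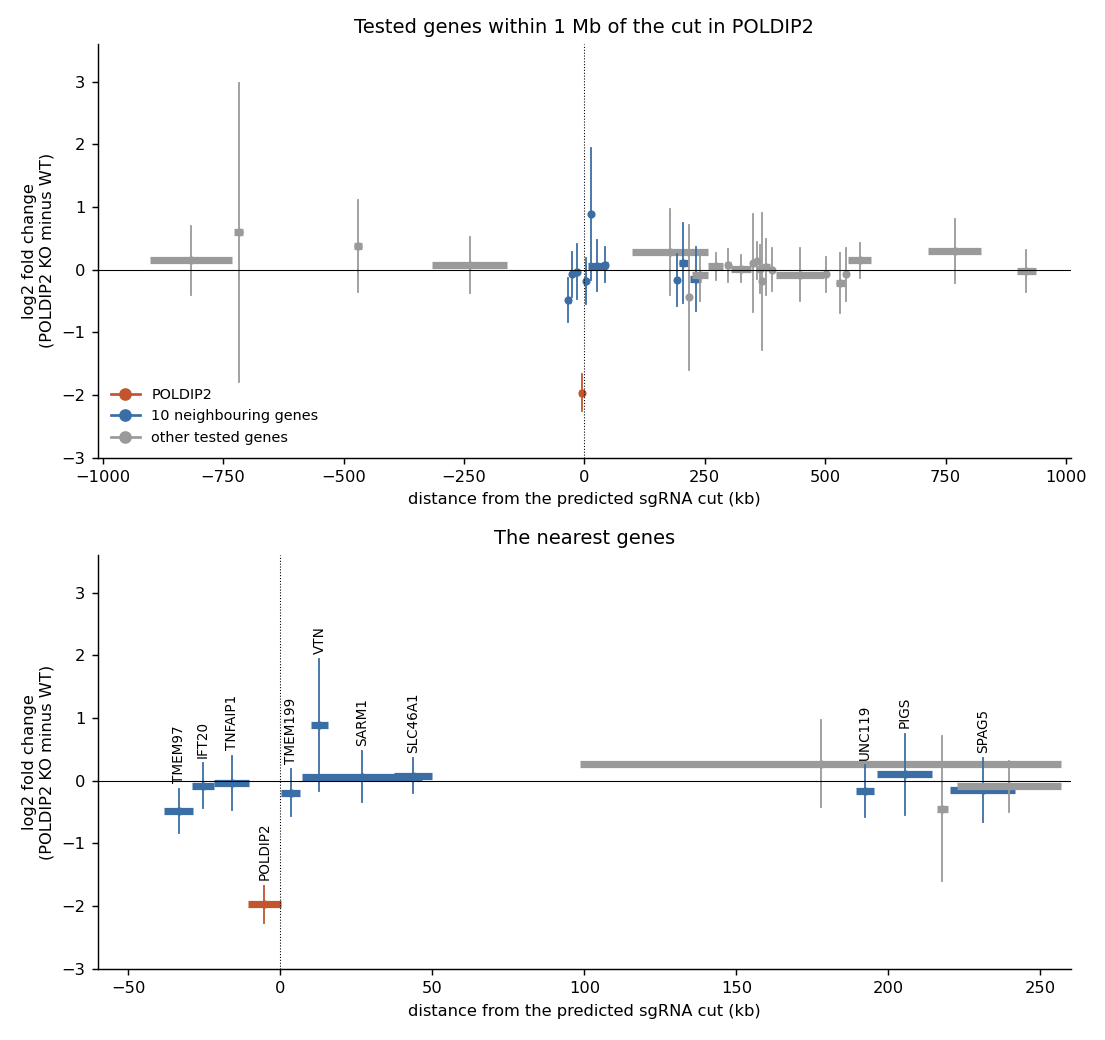
Log2 fold change (POLDIP2 KO minus WT, y axis) of the tested genes within 1 Mb of the predicted sgRNA cut, against distance from the cut in kb (x axis, positive towards higher coordinates). Horizontal bars span each gene, vertical lines are 95% confidence intervals from limma, and the lower panel enlarges the nearest genes. POLDIP2 at -1.97 stands below every neighbour, and the estimates of its neighbours range from -0.48 to 0.89.

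TMEM97 codes for the sigma-2 receptor, a membrane protein of the endoplasmic reticulum that binds the cholesterol transporter NPC1. The gene spans chr17:28319200-28328685 on the plus strand and starts at -38.1 kb from the cut (towards lower coordinates), on the far side of IFT20 and TNFAIP1 from POLDIP2. TMEM97 had normalised counts of 2199, 2177 and 2097 in WT and 1402, 1919.6 and 1364 in POLDIP2 KO. The WT libraries lay close together and the knockout libraries were all lower, with KO replicate 2 between the rest of its line and WT. This was a log2 fold change of -0.48 (SE 0.15, 95% confidence interval from -0.84 to -0.13). Its limma p was under 0.05 before adjustment and 0.508 after Benjamini-Hochberg adjustment. Without KO replicate 3 the estimate was -0.40 and without replicate 1 of either line -0.40, and p was then over 0.05 before adjustment. The knockout library was the lower one in 3 of 3 same-numbered pairs, by 0.65, 0.18 and 0.62 on the log2 scale in pairs 1, 2 and 3. Being lower in all 3 pairs was shared by 15.7% of the tested genes, and a lower knockout line without overlap by 5.44%. An exact permutation test of the mean log2 values gave p = 0.1, two-sided, the smallest that 3 libraries against 3 allow.

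The genes of sterol handling were the list with the largest median difference among those set for the members. They comprised 13 genes of cholesterol synthesis, uptake and transport, listed with earlier results of these data known, and 11 of them were tested. In limma none had an adjusted p under 0.05, and edgeR called none. At an unadjusted limma p under 0.05 without the replicate block, 8 were lower and 0 higher in the knockout line, where 3.47% of all tested genes were lower. With the block 9 had such a p, against 11.1% of all tested genes, and EBPL, which was higher, was among them. Over the 11 genes, 9 had a lower knockout mean and 2 a higher one, EBPL at 0.39 and NPC1 at 0.11 on the log2 scale. A lower knockout mean was found in 7350 of the 14684 tested genes. EBPL was higher in 3 of 3 same-numbered pairs, like 17% of all tested genes. DESeq2 on the recovered reads called 5 of the 11 lower after adjustment, and 7 with the replicate block, where it called 1.89% and 3.82% of all tested genes in either direction. The median log2 fold change of the list was -0.66, against -0.000288 over all tested genes.

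HMGCS1, which makes the precursor of mevalonate, had normalised counts of 8139, 7815 and 5518 in WT and 4022, 1719 and 2182 in POLDIP2 KO, with a log2 difference of -1.51 and a limma adjusted p of 0.21. INSIG1, which holds back the sterol-sensing activators of this pathway in the endoplasmic reticulum, had 4003, 6432 and 4475 in WT and 2230.4, 1669.6 and 2283 in POLDIP2 KO, with a log2 difference of -1.25 and a limma adjusted p of 0.11. The knockout libraries of HMGCS1 and INSIG1 lay below all their WT libraries, where 5.44% of all tested genes were lower without overlap. The libraries did not rank as they did for TMEM97. Of the 8 sterol genes with an unadjusted p under 0.05, 6 were lowest in KO replicate 2 and 0 were highest in it, while TMEM97 was highest in KO replicate 2.

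**Figure D2:**
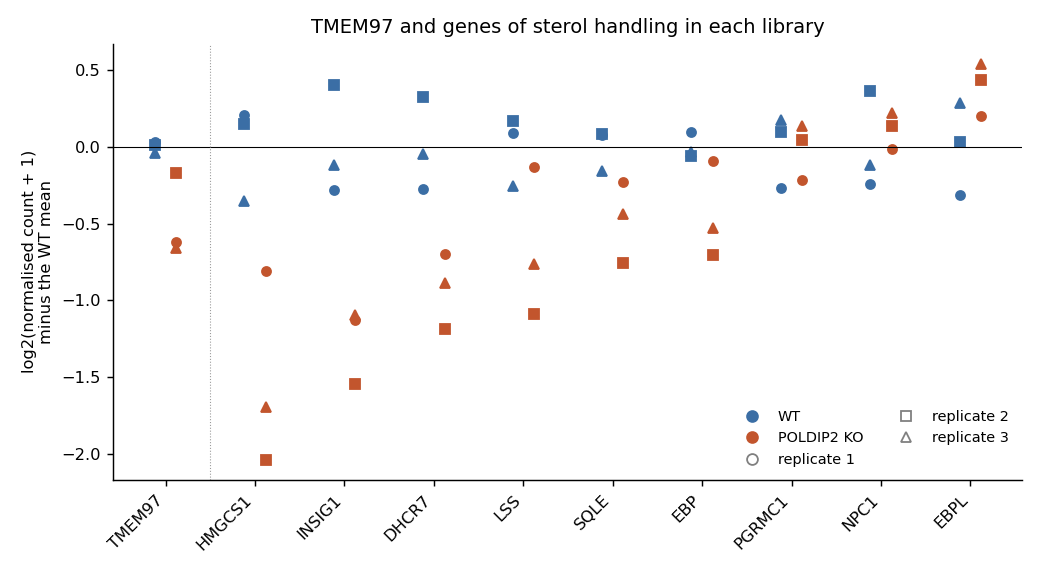
Values of TMEM97 and 9 of the 11 tested genes of sterol handling in each library, as log2(normalised count + 1) minus the WT mean of that gene (y axis). Over all 11 genes, 9 had a lower knockout mean and 2, NPC1 and EBPL, a higher one. Blue marks WT, orange marks POLDIP2 KO, and the shape gives the replicate number. The knockout libraries lie below 0 for TMEM97, HMGCS1 and INSIG1, and KO replicate 2 (square) is the highest knockout library for TMEM97 and the lowest for HMGCS1 and INSIG1.

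The promoter of TMEM97 is shown because it is the member whose lines did not overlap. It is the RefSeq window from 250 bases before to 50 after the start, chr17:28318950-28319249 of GRCh38.p14 on the plus strand, with CCAAT, the letters bound by the factor NF-Y, in capitals.
TMEM97 promoter: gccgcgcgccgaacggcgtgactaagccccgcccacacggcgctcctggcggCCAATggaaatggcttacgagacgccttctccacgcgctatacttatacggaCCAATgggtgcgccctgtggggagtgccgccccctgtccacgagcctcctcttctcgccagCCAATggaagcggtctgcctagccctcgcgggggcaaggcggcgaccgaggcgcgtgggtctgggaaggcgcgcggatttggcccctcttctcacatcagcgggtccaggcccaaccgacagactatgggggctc
CCAAT or its reverse complement occurred 3 times in this window. It occurred in 34.6% of the 35116 RefSeq promoter entries. Some genes have more than 1 entry, and a gene was counted if any of its entries held the letters. By gene these were 3 of the 10 members (TMEM97, VTN and PIGS) and 7 of the 10 sterol genes that have an entry. HMGCS1 and DHCR7, among the 7, each also have an entry without it. EBPL, which was higher, and TM6SF2, which was not tested, are among the 7 too. Counts by gene are not on the scale of the share by entry. GGGCGG, the letters bound by Sp1, occurred 2 times in the TMEM97 window and in 45% of all promoters. TCACNCCAC, a written form of the sterol regulatory element, was searched on both strands and was in none of the 10 members' windows, TMEM97 included, and in 0 of the 10 sterol genes that have an entry. It occurred in 1.13% of all promoters. The matches to CCAAT share no base with those to GGGCGG.

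Vitronectin, the product of VTN, binds integrins, receptors that anchor cells to the matrix. The gene spans chr17:28367284-28373091 on the minus strand, inside the span of SARM1 on the opposite strand. VTN had 79.4, 58.2 and 29.2 normalised counts in WT and 137.8, 68.4 and 93.3 in POLDIP2 KO, which came from 84, 58 and 28 reads and from 112, 84 and 94 reads. KO replicate 2 lay below WT replicate 1, so the lines overlapped, and the lowest library was WT replicate 3. The estimate was 0.89 on the log2 scale, its 95% confidence interval ran from -0.17 to 1.94, and the limma adjusted p was 0.89. An exact permutation test of the mean log2 values gave p = 0.2, two-sided.

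The knockout library had the higher VTN value in 3 of 3 same-numbered pairs, by 0.79, 0.23 and 1.64 on the log2 scale, a pattern that 17% of all tested genes shared. With the replicate block the interval was 0.03 to 1.75, and the limma adjusted p was 0.434. Without WT replicate 3 the log2 fold change was 0.49, and without WT replicate 1 it was 1.19. Since hepatocytes are the main source of vitronectin in the body, their markers were read beside it. ALB, APOA1, APOB, FGB and AHSG were at most 3.1 normalised counts in any library, and the summed level of the 6 markers was 172, 192 and 114 in WT and 192, 178 and 182 in POLDIP2 KO, nearly all of it SERPINA1.

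Among 10 genes for vitronectin receptors and partners, 9 were tested, 0 were called before or after adjustment, and the median log2 fold change was 0.08. Of all tested genes 6.48% had an unadjusted limma p under 0.05 and 0.17% an adjusted one. A count of 0 is near these shares in a list of this size, and in the partner lists below as well. PLAUR, the urokinase receptor gene, had means of 1014 and 1168 normalised counts in WT and POLDIP2 KO. Of 6 leukocyte markers CD3E was at 0 throughout and CD14 reached at most 6.5 normalised counts, while PTPRC was at 0 in WT and at 1.2, 3.3 and 7.0 in POLDIP2 KO. CSF1R, a receptor gene of macrophages, went the other way, with 48.2, 24.1 and 15.7 normalised counts in WT and 4.9, 14.7 and 11.9 in POLDIP2 KO. The groups of CSF1R did not overlap, and its log2 difference of -1.37 did not pass the test (limma adjusted p = 0.819). Lower values without overlap were found in 5.44% of all tested genes. The leukocyte sum was 1728, 2214 and 2042 in WT and 1866, 2153 and 1949 in POLDIP2 KO, nearly all of it the lysosomal gene CD68. The sum of 4 endothelial markers stayed between 19.8 and 51.3, most of it VWF. The part of such cells in the values of VTN was not tested.

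TMEM199, listed in RefSeq as VMA12, codes for an assembly factor of the vacuolar proton pump and is the divergent partner of POLDIP2. The gene spans chr17:28357642-28363683 on the plus strand. The WT libraries had 783, 895 and 859 normalised counts of it and the POLDIP2 KO libraries 899, 695 and 652. KO replicate 1 was the highest of all 6 libraries and KO replicates 2 and 3 were the lowest, so the lines overlapped. The knockout minus WT estimate was -0.19 on the log2 scale, with an interval (95%) from -0.56 to 0.18 that spans 0.68-fold to 1.13-fold, and the limma adjusted p was 0.9998, as for the other 7 members described after it. The difference was 0.20, -0.36 and -0.40 in pairs 1, 2 and 3. Without replicate 1 of either line it was -0.38 (limma adjusted p = 0.661).

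Of 10 other genes of proton pump assembly and its membrane sector, all were tested, 0 passed after adjustment, and the median log2 fold change was 0.04. ATP6V0A1, which codes for a large subunit of the membrane sector, had 2280.5, 2278 and 2511 normalised counts in WT and 1759, 2203 and 1805 in POLDIP2 KO. The knockout libraries of ATP6V0A1 all lay below WT, and the gene had a log2 difference of -0.30, a limma p under 0.05 before adjustment and an adjusted p of 0.747. ATP6V0B was also lower without overlap, at a log2 difference of -0.23. ATP6V0E1 went the other way, with 4771, 4626 and 4540 normalised counts in WT and 5583, 5138 and 5018 in POLDIP2 KO. Among all tested genes 5.44% were lower and 5.46% higher without overlap.

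SLC46A1 codes for the proton-coupled folate transporter, which moves folate across membranes at acidic pH, and spans chr17:28394642-28407197 on the minus strand. In WT it had 687, 708 and 789 normalised counts and 766, 777 and 764 in POLDIP2 KO. WT replicate 3 was the highest library and the other WT libraries were the lowest. Its estimate of 0.08 (-0.19 to 0.36) had the narrowest 95% interval among the 10. Of 10 genes of folate transport and use, 7 were tested and 0 were called before or after adjustment, with a median of -0.03. FOLR3, a folate receptor gene, had the largest of these differences, with means of 282.5 and 326 normalised counts and a log2 fold change of 0.18.

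SARM1 codes for an enzyme with a TIR domain that cleaves NAD and drives the breakdown of injured axons. It spans chr17:28364356-28404049 on the plus strand and begins beyond TMEM199. SARM1 had normalised counts of 1447, 1736 and 1210.1 in WT and 1685, 1596 and 1285 in POLDIP2 KO, and the lines overlapped. The log2 estimate was 0.06 (95% interval -0.34 to 0.47), and it was -0.02 without KO replicate 1 and -0.07 without WT replicate 3.

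Of 14 genes of NAD metabolism and TIR adaptors, 12 were tested and 0 passed after adjustment in limma or edgeR, with a median of 0.01. NMNAT2, the axonal enzyme of NAD synthesis that keeps SARM1 inactive, had the lowest limma p of the list. NMNAT2 had 134, 136 and 49.1 normalised counts in WT and 288, 281 and 296 in POLDIP2 KO, and the knockout libraries all lay above WT. On the log2 scale the difference was 1.57, with an adjusted p of 0.323 in limma and of 0.0279 in DESeq2 on the recovered reads. Higher values without overlap were found in 5.46% of all tested genes. NAPRT, which starts NAD synthesis from nicotinic acid, had a log2 difference of 0.86 and was higher in 3 of 3 same-numbered pairs, while its lines overlapped (limma adjusted p = 0.9998, and 0.319 with the replicate block).

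TNFAIP1 codes for an adaptor that brings the small GTPase RhoA to the CUL3 ubiquitin ligase, and it is the nearest gene beyond the 3′ end of POLDIP2. It spans chr17:28335602-28347009 on the plus strand, and its exons share 377 bases with those of POLDIP2 on the opposite strand. Normalised counts of TNFAIP1 were 5506, 4791 and 4134 in WT and 5980.0, 4307 and 3969.8 in POLDIP2 KO. Replicate 1 was the highest and replicate 3 the lowest library of both lines. Between the lines it differed by -0.03 on the log2 scale (95% interval -0.46 to 0.40, and -0.25 to 0.19 with the block). Of 6 related genes, the paralogues KCTD10 and KCTD13 and the ligase and GTPase genes, 6 were tested and 0 were called, with a median of 0.04.

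PIGS codes for a subunit of the transamidase that attaches GPI anchors to proteins. It spans chr17:28553383-28571794 on the minus strand and starts 214.5 kb from the cut. For PIGS the normalised counts were 3298, 2236.5 and 1944 in WT and 3724, 2126 and 2257 in POLDIP2 KO. Replicate 1 stood above replicates 2 and 3 in both lines, by 0.66 in WT and 0.77 in POLDIP2 KO on the log2 scale. The difference between the lines was smaller, at 0.11 (95% interval -0.54 to 0.75, and -0.14 to 0.35 with the block). The other subunit genes PIGK, PIGT, PIGU and GPAA1 were all tested and 0 were called, with a median of 0.002.

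IFT20 and UNC119 code for proteins of ciliary traffic. IFT20, a subunit of the intraflagellar transport B complex that also sits at the Golgi, spans chr17:28328325-28335489 on the minus strand. IFT20 had 646, 657 and 640.05 normalised counts in WT and 731, 536 and 591 in POLDIP2 KO. The WT libraries differed by little and lay inside the range of the knockout libraries. The lines differed by -0.08 on the log2 scale (95% interval -0.43 to 0.28). Of 17 genes, those of the complex and of TRIP11, its Golgi anchor, all were tested and 0 passed after adjustment, while IFT74 and IFT80 had higher knockout libraries without overlap and log2 differences of 0.39 and 0.29, with an unadjusted p under 0.05 in limma. Of all tested genes 5.46% were higher without overlap and 3.0% were higher at that p.

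UNC119 codes for a chaperone that carries lipid-modified proteins and is abundant in photoreceptors. It spans chr17:28546708-28552631 on the minus strand. UNC119 had normalised counts of 678, 854 and 906 in WT and 680.3, 633 and 861 in POLDIP2 KO. KO replicate 2 was the lowest library, and the lines overlapped. Its log2 estimate was -0.17 (95% interval -0.58 to 0.25), and it ran from -0.30 to -0.08 with 1 library left out in turn. Of 6 genes of the same traffic route, such as UNC119B and ARL3, 6 were tested and 0 had an unadjusted p under 0.05, with a median of -0.01. The knockout libraries of 2 of them, UNC119B and ARL3, lay above WT without overlap, with log2 differences of 0.12 and 0.26, where 5.46% of all tested genes were higher without overlap.

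SPAG5 codes for astrin, a protein of the mitotic spindle, and is the farthest member, at chr17:28577565-28599025 on the minus strand. Normalised counts were 3773, 2392 and 4182 in WT and 2683, 3203 and 3231 in POLDIP2 KO. WT replicate 2 was the lowest library and the other WT libraries were the highest. SPAG5 differed by -0.15 on the log2 scale (95% interval -0.66 to 0.36). Of 12 other genes of spindle and cell division, 12 were tested, 0 were called at an unadjusted p under 0.05, and the median was -0.155. A lower knockout mean was found in 10 and a higher one in 2, where 7350 of the 14684 tested genes had a lower one. Most of the 12 were higher in the knockout library in pair 2 and lower in pairs 1 and 3, so they are not 12 separate observations. The summed level of these genes was lowest in WT replicate 2 among the WT libraries, at 53660, as it was for SPAG5, against 76630 and 83190 in WT replicates 1 and 3.

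**Figure D3:**
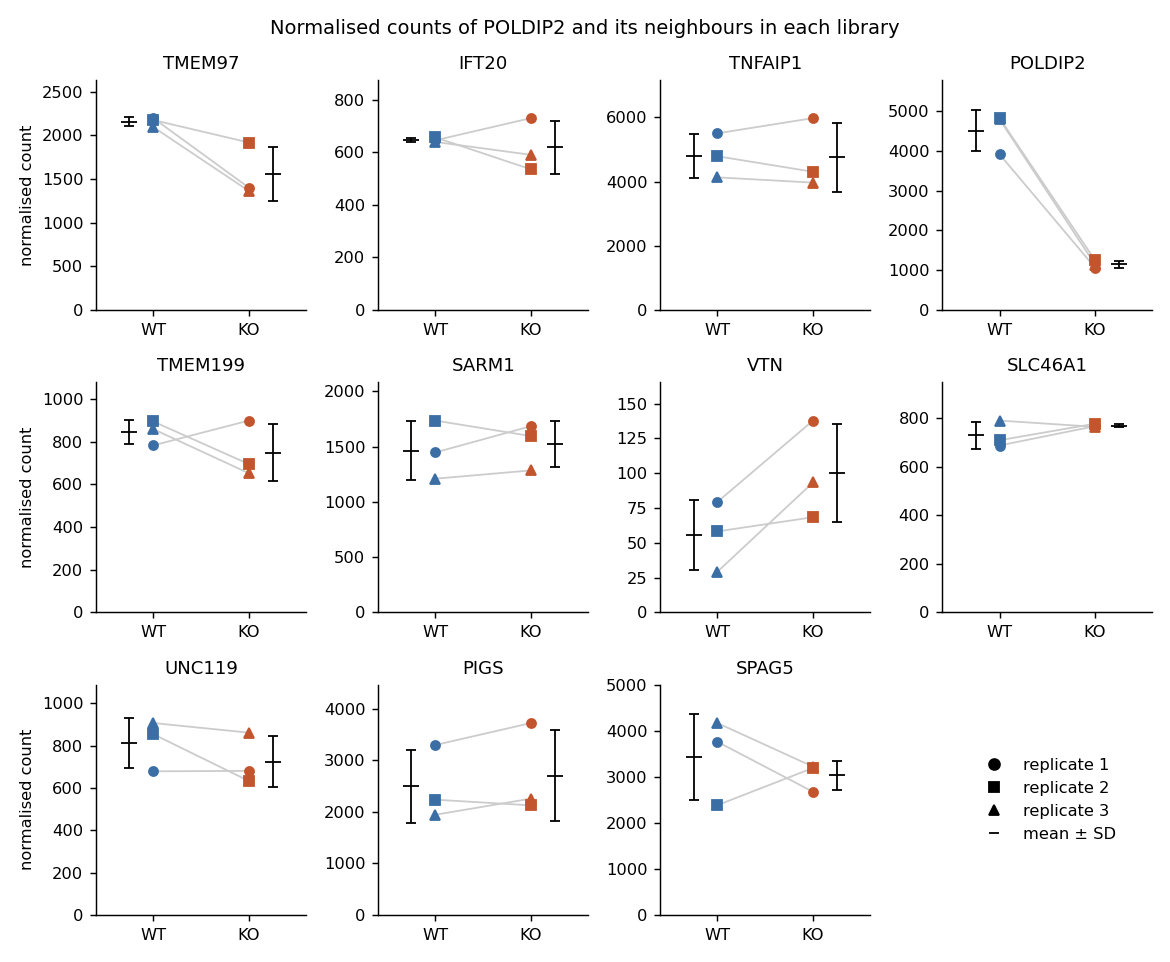
Normalised count (y axis, from 0) of POLDIP2 and its 10 neighbours in each WT and POLDIP2 KO library. Lines join libraries of the same replicate number and bars give the mean ± SD of 3 libraries. POLDIP2 and TMEM97 are the panels in which the lines do not overlap, and replicate 1 is the highest library of both lines for PIGS, TNFAIP1 and VTN.

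Each member was also read within pairs of same-numbered libraries, whose deviations from the line mean had r = 0.315, 0.137 and 0.129 over the tested genes. WT replicate 3 and POLDIP2 KO replicate 2, of unlike number, had r = 0.147. The pairing thus stood out for replicate 1 only, and readings by pair or with the block rest on it. Of the 10 members, 2 moved in 1 direction in all 3 pairs, TMEM97 downwards and VTN upwards, where 32.7% of all tested genes moved in 1 direction. POLDIP2 differed by -1.88, -1.95 and -2.07 in the 3 pairs. The block narrowed the intervals of PIGS and TNFAIP1, whose replicates differed alike in both lines, and left that of SPAG5 at -0.63 to 0.34. SPAG5 differed by -0.49, 0.42 and -0.37 in pairs 1, 2 and 3.

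**Figure D4:**
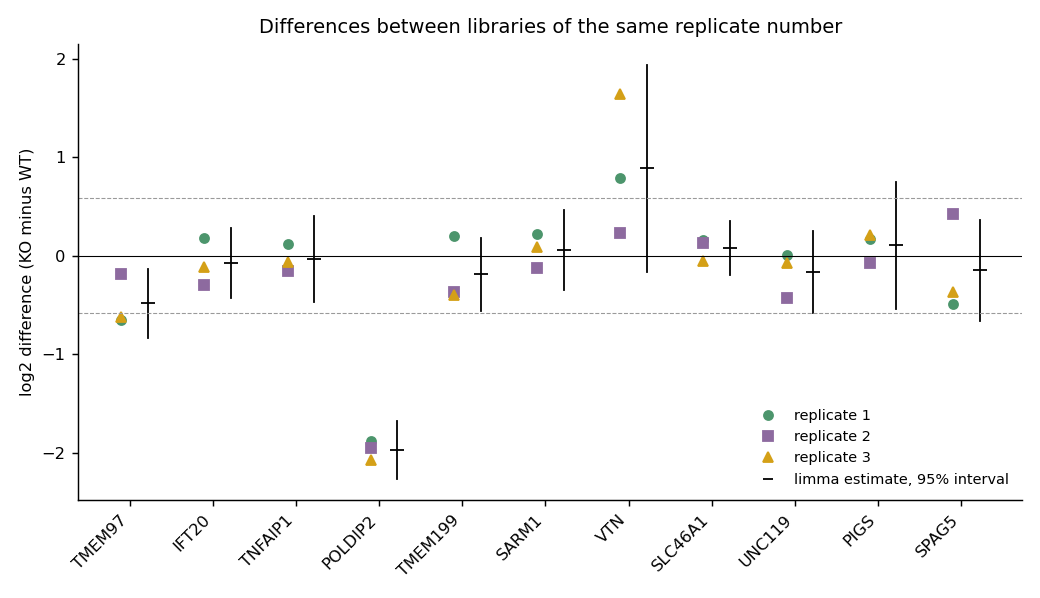
Log2 difference between POLDIP2 KO and WT (y axis) for each pair of libraries with the same replicate number (coloured points), with the limma estimate and its 95% confidence interval (black). Dashed lines mark a 1.5-fold change. POLDIP2 lies between -2.07 and -1.88, TMEM97 below 0 in every pair and VTN above 0 in every pair, and the other 8 neighbours have pairs on both sides of 0.

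Levels of different genes were compared per kb of exon, using the summed length of all annotated exons. In WT the order from the highest level was POLDIP2, TNFAIP1, TMEM97, SPAG5, PIGS, IFT20, TMEM199, UNC119, SARM1, SLC46A1 and VTN. POLDIP2 stood at 1691 ± 193 normalised counts per kb and VTN at 29.2 ± 13.2 (SD, n = 3 libraries), a 57.9-fold difference in level. The ranges of TMEM97 and SPAG5, of TMEM199 and UNC119, and of UNC119 and SARM1 overlapped, so the order within these pairs was not resolved, while the other neighbours in the order did not overlap.

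In POLDIP2 KO the level of POLDIP2 per kb was 431 ± 34.8, which placed it at rank 4 of the 11, between TMEM97 and PIGS. TNFAIP1 was then the highest at 1222 ± 277 and VTN the lowest at 52.4 ± 18.5, a 23.3-fold difference. The ranges of SPAG5, TMEM97, POLDIP2 and PIGS each overlapped the next, as did those of IFT20, TMEM199, UNC119 and SARM1. With the length of the longest transcript in place of all exons, SPAG5 came before TMEM97 in WT and the WT difference was 49.5-fold. The WT ranges of POLDIP2 and TNFAIP1 then overlapped, at 1468 to 1808 and 1158 to 1542 per kb, with POLDIP2 still first. In POLDIP2 KO the same lengths placed PIGS, at 610 ± 200.2, before POLDIP2, which came to rank 5.

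**Figure D5:**
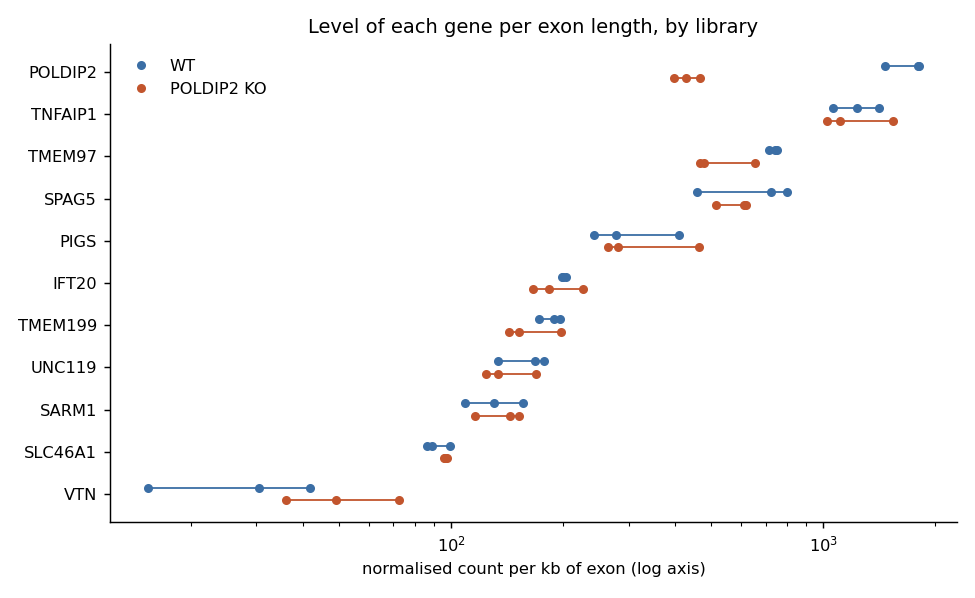
Level of POLDIP2 and its 10 neighbours in each library, in normalised counts per kb of exon (x axis, logarithmic), with WT in blue and POLDIP2 KO in orange and a bar over each set of 3 libraries. POLDIP2 is the gene whose ranges are far apart, VTN is the lowest gene in both lines, and most other genes have ranges that overlap between the lines.

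Several members share annotated exon bases on opposite strands, and the strand setting of the counting is not given in the sources used here. TMEM97 and IFT20 share 361 bases, and SARM1 and SLC46A1 share 4421. On the same strand, TMEM199 and SARM1 share 555 and 495 bases with a readthrough transcript gene, ENSG00000258924, that was not in the table, and SPAG5 shares 485 bases with the readthrough gene ENSG00000258472. VTN, the member with the lowest level, shares 329 bases on its own strand with ENSG00000273171, a gene of the table that was at 0 in all libraries. Reads from such stretches could be split between genes, and their part in the values was not tested.

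The stretch around the cut was also read gene by gene. Without POLDIP2, 15 genes of the table have an edge within 100 kb of the cut, and 8 of them were tested, 7 of the members and RSKR, a kinase gene, at 0.27 on the log2 scale (95% interval -0.41 to 0.96). SEBOX, ENSG00000273171, H3P41, ENSG00000263870 and ENSG00000264029 were at 0 in all libraries, and ENSG00000266306 and KRT18P55 had at most 1 read in any library. Within 1 Mb, 74 genes are in the table and 33 were tested. Of these 0 were called after adjustment by limma, edgeR or DESeq2, where limma called 0.17% and DESeq2 1.89% of all tested genes, so that a count of 0 among 33 is near the background. By limma 1 had an unadjusted p under 0.05 (TMEM97), 18 had a higher and 15 a lower knockout mean, and the median log2 fold change was 0.01.

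The 3 largest absolute log2 fold changes within 1 Mb were those of VTN at 0.89, LGALS9 at 0.59 and TMEM97 at -0.48. LGALS9, a lectin gene, had between 1.63 and 24.8 normalised counts, with an interval of -1.79 to 2.98. On the whole of chromosome 17 without POLDIP2, 805 genes were tested, 2 were called higher and 1 lower, and the median was 0.00175.

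The genes whose values ran most like those of TMEM97 over the 6 libraries were AKAP12, ZNF724 and SLAIN1, chosen among 11930 genes with a mean of at least 100 normalised counts by the root mean square difference of centred log2 values, which was 0.0627, 0.0712 and 0.0803. AKAP12, a scaffold gene for protein kinase A, had 8188, 8290.0 and 7237 normalised counts in WT and 4804, 6822 and 5184 in POLDIP2 KO, again with KO replicate 2 nearest to WT. For TMEM199 the nearest were SLC35C2, MGRN1 and TRAPPC10, at 0.0639, 0.0644 and 0.0644. SLC35C2, a nucleotide sugar transporter gene, had 1360.0, 1576 and 1330.0 normalised counts in WT and 1486, 1185 and 1054 in POLDIP2 KO, with KO replicate 1 above the other knockout libraries as in TMEM199. These likenesses are descriptions over 6 libraries of 2 lines, and say nothing of shared function or control.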

How the data were processed

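Poly(A) mRNA of 3 WT and 3 POLDIP2 KO ARPE-19 libraries was sequenced with 100 bp reads. Per the labels and the study's methods, the authors estimated transcript abundance with Salmon 1.8 on GRCh38 and divided gene counts by DESeq2 1.34.0 size factors; the deposited table holds this normalised count signal for 37902 Ensembl genes, of which 34152 matched a GENCODE 44 symbol. The annotation release and the strand setting are not given in the sources used here. Of the columns, 0 were left out.

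All values were recovered as whole reads to within 0.001 in each library. In WT replicate 2 and POLDIP2 KO replicate 3, 1 read was worth close to 1, at 1.00336 and 0.992953 normalised counts. Their largest distances from a whole read were 8.51e-05 and 0.000221. Genes with a mean of at least 10 were tested on log2(normalised count + 1) with limma 3.58.1 (trend, R 4.3.3) and Benjamini-Hochberg adjustment over 14684 genes, called at an adjusted p under 0.05 and a fold over 1.5; fold changes on this scale understate low genes. edgeR 4.0.16 and DESeq2 1.42.0 were run on the recovered reads and called 9 and 111 genes higher and 8 and 137 lower. Deviations from the line mean had r = 0.315, 0.137 and 0.129 in same-numbered pairs 1, 2 and 3, and from -0.259 to 0.147 in other pairs. The highest of the others, WT replicate 3 with POLDIP2 KO replicate 2, lay above pairs 2 and 3. The numbers were taken to pair the samples, although only pair 1 stood out, and the labels state no shared day. The fits were tested on simulated data, where the share of false calls was above the nominal level in limma, edgeR and DESeq2, so an adjusted p under 0.05 is less strict here than its nominal level.

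The genes named are the 10 members, POLDIP2, the genes within 100 kb of the cut, the called genes and 3 largest absolute changes within 1 Mb, up to 3 genes of each partner list by absolute change, the markers, and the 3 genes most like TMEM97 and TMEM199. Further list genes are named for their role or their direction (such as ATP6V0E1, KCTD13, CUL3, PIGU, TRIP11 and NPC1), chosen after their values were seen. The members and lists were chosen with earlier results of these data known. Some list members enter the counts and medians of their lists and are not reported here on their own.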

Additional observations from a re-analysis of the deposited data

How the results depend on the processing

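The count of members called after adjustment was 0 under every alternative: pseudocounts of 0.5 and 5, no filter on low values and a mean of at least 50, quantile normalisation and recentred libraries, eBayes without trend or robust, the replicate block, edgeR and DESeq2 with and without the block, and each library left out in turn. Of all tested genes, 12 were higher and 13 lower in POLDIP2 KO. DESeq2 called 111 higher and 137 lower, and 184 and 208 with the replicate block. edgeR called 8 lower, and 3 higher and 2 lower with the replicate block. A mean of at least 50 left 6 lower. Without 1 library the counts ran from 0 to 3 higher and from 0 to 2 lower, and without replicate 1 of either line they were 2 and 2. In limma the replicate block gave 17 higher and 13 lower and changed no member's call.

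Over the alternatives that kept all libraries, TMEM97 stayed between -0.48 and -0.47 with an adjusted p from 0.0502 (DESeq2 with the replicate block) to 0.582, and VTN between 0.83 and 0.95 with 0.434 to 0.989. Leaving out 1 library gave -0.64 to -0.40 for TMEM97 and 0.49 to 1.19 for VTN. TMEM199 (-0.326 to -0.0949), UNC119 (-0.298 to -0.0759) and SLC46A1 (0.0401 to 0.14) kept their sign in that step. The sign turned in that step for SARM1 (-0.0682 to 0.192), PIGS (-0.149 to 0.326), TNFAIP1 (-0.208 to 0.0872), IFT20 (-0.203 to 0.0205) and SPAG5 (-0.391 to 0.0114), and without replicate 1 of either line for SARM1 (-0.0175) and SPAG5 (0.0244); the cause was not tested. With 3 libraries a line, the 95% intervals of 4 members (TMEM97, VTN, PIGS and SPAG5) reached beyond a 1.5-fold change, and VTN rested on 28 to 112 reads a library.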
